A study of Mus musculus with 2 samples.

Results

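Hypoxia and glycolysis genes were described as a set of 33 genes, chosen by gene name, of 34400 genes listed in at least 1 of the deposited tables. They fall into 17 genes of glucose uptake, glycolysis and lactate export and 16 stress targets of the hypoxia-inducible factor (HIF), and all 33 were found in both tables. The study made 2 single-cell RNA libraries, 1 per group, from tumours raised with CT26, a colon carcinoma line of mouse origin. One group was given control IgG and the other an antibody against SLC7A11, a cystine importer. Both were dosed at 10 mg/kg with 2 days between doses, once tumours measured 50 to 100 mm³. The design text places the graft at the caecum and also mentions subcutaneous growth, so the graft site is uncertain. The labels give no mouse strain, sex, age or number of animals pooled in a library. Since each group has 1 library, no test across samples can be made, differences have no replicate check, and library and treatment cannot be told apart.

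Glycolysis splits glucose into pyruvate, and lactate dehydrogenase then turns pyruvate into lactate, which leaves the cell through monocarboxylate carriers. HIF is a transcription factor that prolyl hydroxylases mark for destruction while oxygen is plentiful. When oxygen is short it binds DNA at hypoxia response elements and raises genes for glucose uptake and glycolysis, for mitophagy, for pH control and for the growth of vessels. Most glycolytic enzymes are also made in well oxygenated dividing cells, whereas targets such as carbonic anhydrase 9 are low unless HIF is active.

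HIF binds the core letters ACGTG or GCGTG, so promoters of some members, picked by hand, are shown first, with each match on either strand in capitals. RefSeq promoter windows on GRCm38.p6 matched 31 of the 33 genes, and Ndrg1 and Bnip3l had no entry. The bases shown lie within the 250 bases before the annotated start and outside any annotated exon. Ldha and Bnip3 hold 5 matches each and the others 2 or 3, where the palindrome CACGTG counts on each strand. Among members not shown, Car9 had 1 match, and the first listed windows of some, such as Tpi1, Aldoa, Pkm, Vegfa and Hilpda, had 0.
Ldha: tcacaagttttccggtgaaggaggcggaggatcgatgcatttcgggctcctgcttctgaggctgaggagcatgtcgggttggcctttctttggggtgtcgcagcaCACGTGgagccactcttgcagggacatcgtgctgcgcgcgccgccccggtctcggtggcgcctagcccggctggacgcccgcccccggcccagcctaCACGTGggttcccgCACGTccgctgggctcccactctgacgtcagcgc
Pgk1: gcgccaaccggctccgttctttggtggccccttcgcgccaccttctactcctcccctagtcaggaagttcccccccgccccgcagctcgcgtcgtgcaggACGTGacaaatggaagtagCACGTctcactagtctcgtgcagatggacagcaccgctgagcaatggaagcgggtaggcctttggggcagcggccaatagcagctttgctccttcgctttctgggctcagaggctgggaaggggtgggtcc
Pgam1: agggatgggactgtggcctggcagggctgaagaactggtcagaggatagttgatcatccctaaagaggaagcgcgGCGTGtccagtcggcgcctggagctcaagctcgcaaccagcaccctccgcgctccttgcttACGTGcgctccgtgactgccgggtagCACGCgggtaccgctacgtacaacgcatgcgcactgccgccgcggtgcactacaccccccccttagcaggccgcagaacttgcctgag
Hk2: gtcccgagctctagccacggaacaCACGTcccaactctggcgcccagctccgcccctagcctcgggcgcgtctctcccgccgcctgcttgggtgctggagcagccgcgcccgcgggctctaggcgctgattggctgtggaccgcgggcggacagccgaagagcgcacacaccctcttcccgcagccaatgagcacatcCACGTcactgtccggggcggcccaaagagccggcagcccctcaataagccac
Bnip3: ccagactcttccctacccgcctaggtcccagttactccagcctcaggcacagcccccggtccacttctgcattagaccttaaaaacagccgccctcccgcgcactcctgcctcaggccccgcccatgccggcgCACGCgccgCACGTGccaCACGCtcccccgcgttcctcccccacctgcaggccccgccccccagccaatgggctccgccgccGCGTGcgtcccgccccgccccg
Ankrd37: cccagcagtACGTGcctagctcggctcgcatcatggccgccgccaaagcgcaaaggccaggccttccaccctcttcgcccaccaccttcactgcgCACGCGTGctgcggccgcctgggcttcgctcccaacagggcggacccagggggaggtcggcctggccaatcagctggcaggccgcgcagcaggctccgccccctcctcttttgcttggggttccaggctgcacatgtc
Ero1a: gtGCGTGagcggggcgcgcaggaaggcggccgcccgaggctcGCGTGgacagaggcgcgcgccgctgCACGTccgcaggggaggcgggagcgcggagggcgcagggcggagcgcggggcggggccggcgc
The stretches are chr7:46845554-46845803 on the plus strand, chrX:106186850-106187099 on the plus strand, chr19:41911621-41911870 on the plus strand, chr6:82774455-82774704 on the minus strand, chr7:138909520-138909756 on the minus strand, chr8:45999868-46000100 on the minus strand and chr14:45318573-45318702 on the minus strand. In the first listed window of each gene, 12 of 17 glycolysis genes and 11 of 14 HIF stress genes held ACGTG or GCGTG within 250 bases, against 38.6% of 27025 genes. The members' windows were also richer in G and C, with medians of 62.8% and 65.8% against 52.0% for all genes. A match is only a run of letters and does not show binding.

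Cells were assigned to classes by unique molecular identifiers (UMIs, single counted transcripts) of marker genes, none of which is a member. The tumour gate works by exclusion: a cell needed 1000 UMIs, 0 UMIs of Y-linked genes, almost no UMIs of leukocyte or endothelial markers, and under 50 of fibroblast markers, Dcn left out, per 10000. It held 9849 control cells (79.9%, exact 95% interval 79.2 to 80.6) and 6328 antibody cells (58.1%, 57.1 to 59.0). The labels call the cells goblet cells, but defining epithelial markers were nearly absent: Epcam had 2 and 1 counts, Cldn7 had 0 and 1, and Krt18 was seen in 24.5% and 22.9% of tumour-gated cells. These cells are therefore named by the gate alone. The median depth of tumour-gated cells was 8594 UMIs in the control against 13556 after antibody. Dcn, a matrix gene also high in fibroblast-gated cells, was at 1357 and 1286 CPM in tumour-gated cells. The fibroblast marker Col1a2, a collagen gene, was seen in 85.3% and 84.7% of them (412 and 344 CPM), and Col3a1 in 58.7% and 62.3%. Macrophage markers differed between the libraries there: all 8 were above 0 counts in each and their sum was 42.7 and 105 CPM, and their part in the results was not tested. The libraries held 12326 and 10897 cells after filtering, and 39 barcodes occur in both. Levels are counts per 1000000 UMIs of a class (CPM), ratios are antibody over control on the log2 scale, and all intervals are exact 95% intervals for counting error only. Wherever a pair of values is given, the control comes first and the antibody library second, unless the sentence names other groups.

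The HIF stress genes were higher in the antibody library in tumour-gated cells, and glycolysis genes by less. Summed, the 16 HIF stress genes reached 1506 CPM in the control against 2500 CPM after antibody, and the 17 glycolysis genes 11030 against 13162 CPM. All 33 genes passed the minimum of 20 counts and 32 had a ratio above 1, 16 of 17 in glycolysis and 16 of 16 in HIF stress. The median log2 ratio was 0.74 for HIF stress genes and 0.23 for glycolysis genes, while the median of 18670 genes was -0.16 and 38.5% of them were above 0. A ratio of at least 2-fold was reached by 8 members, 3 of glycolysis and 5 of HIF stress, and by 11.4% of all genes tested. They were Hk2, Pfkfb3 and Pgam1, and Bnip3, Ero1a, Adm, Ankrd37 and Egln3. With cells thinned to 1000 UMIs the number was 5. None of the members was 2-fold lower (0 of 33), against 4.8% of all genes. Among the 1867 genes with most counts, 8.25% were at least 2-fold higher and 0.375% at least 2-fold lower. Median-of-ratios scaling adds 0.17 to each log2 ratio, which puts 33 members above 0 and makes 81.5% of the 2-fold calls among all genes higher ones, against 70.4% with class totals. With totals free of mitochondrial, ribosomal and haemoglobin genes 30 members were above 0, and Gapdh and Pkm joined Aldoc below it.

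**Figure D1:**
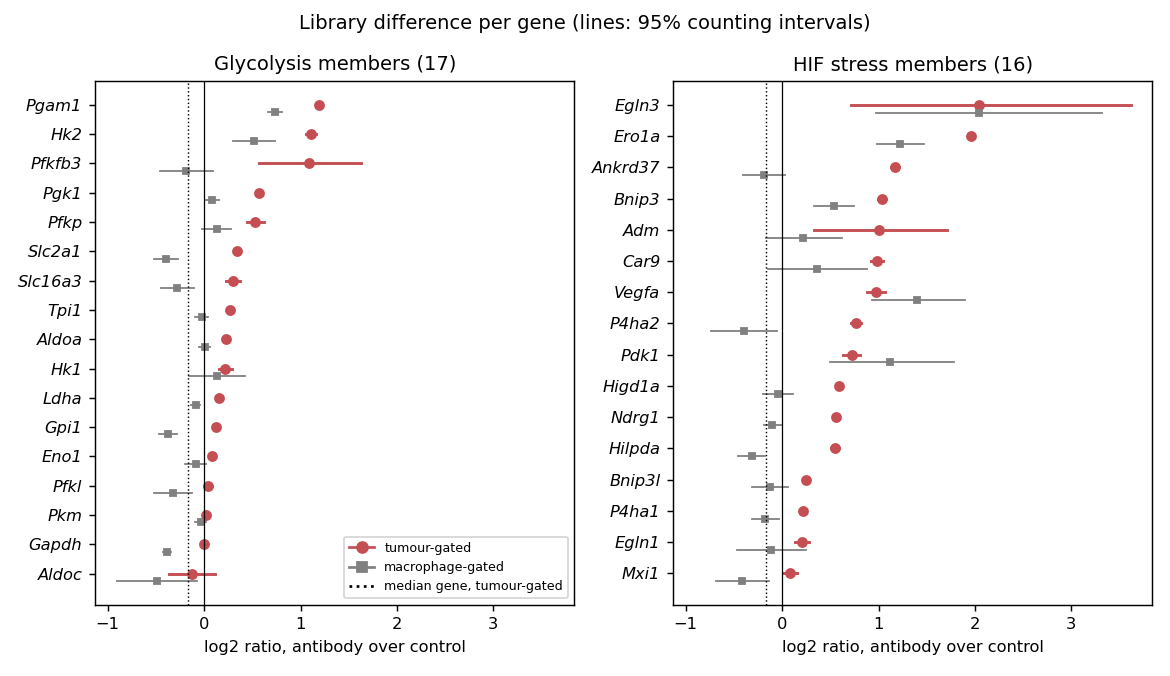
Log2 ratio of antibody over control for each member in tumour-gated cells (red circles) and macrophage-gated cells (grey squares), with 95% counting intervals as lines and the median gene of tumour-gated cells dotted. In tumour-gated cells 32 of 33 points lie to the right of 0, with Ero1a at 1.96 and Pgam1 at 1.19. In macrophage-gated cells 13 of 33 do, Ero1a and Pgam1 among them, with Egln3 farthest right at 2.04.

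Glucose enters through Slc2a1, the transporter GLUT1, at 133 CPM in the control against 169 CPM after antibody (log2 ratio 0.34, 0.31 to 0.38). The hexokinases, which trap glucose in the cell, differed in size of ratio. Hk2, the inducible form, had 42.5 and 91.4 CPM (1.11, 1.05 to 1.16). Hk1, the constitutive form, had 33.1 and 38.5 CPM (0.22, 0.15 to 0.29). Their intervals do not overlap. Gpi1, which isomerises glucose 6-phosphate, had 468 and 508 CPM (0.12).

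Phosphofructokinase commits sugar to glycolysis. Its liver form Pfkl had 88.0 and 90.5 CPM, a ratio of 0.04 whose interval from -0.004 to 0.08 spans 0. The platelet form Pfkp had 19.0 and 27.5 CPM (0.53, 0.44 to 0.62). Pfkfb3, which makes the activator of phosphofructokinase, was almost absent with 46 and 99 counts (1.08, 0.57 to 1.62). Aldoa, the main aldolase, had 880 and 1030 CPM (0.23), and Aldoc 300 and 279 counts, a ratio of -0.13 within counting error (-0.37 to 0.11). Tpi1, triosephosphate isomerase, had 974 and 1171 CPM (0.27).

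The later steps of the pathway were uneven. Gapdh, which reduces NAD, had 2716 and 2723 CPM (0.004, -0.004 to 0.01). Pgk1, the first enzyme that yields ATP, had 1244 and 1844 CPM (0.57, 0.56 to 0.58). Pgam1, a mutase, had 575 and 1309 CPM with a log2 ratio of 1.19. These consecutive enzymes thus had ratios of 1.00, 1.48 and 2.28. Eno1, enolase, had 561 and 595 CPM (0.09), and Pkm, pyruvate kinase, 1076 and 1092 CPM (0.02). Ldha, which makes lactate, had 2188 and 2433 CPM (0.15, 0.14 to 0.16). Slc16a3, the lactate exporter MCT4, had 28.9 and 35.5 CPM (0.30). Near-identical copies could share reads with these genes. The copies were counted over all barcodes of a library, not in tumour-gated cells alone. Eno1b, a copy of Eno1, had 2474 and 3476 counts, so the level of Eno1 is uncertain by an amount that was not tested. Each of the 12 other copies looked up had at most 89.

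Among the HIF stress genes that act on mitochondria, Bnip3, a mitophagy receptor, had 79.1 and 162 CPM (1.04, 1.00 to 1.08). Its relative Bnip3l had 175 and 209 CPM (0.25, 0.22 to 0.28). Pdk1, which shuts pyruvate out of the citric acid cycle, had 18.3 and 30.1 CPM (0.72, 0.64 to 0.81). Higd1a, a respiratory chain factor, had 252 and 379 CPM (0.59). The paired mitophagy genes thus had ratios whose intervals do not overlap.

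Ero1a, an oxidase that helps proteins fold in the endoplasmic reticulum, had the highest ratio among members with over 100 counts, with 110 and 428 CPM (1.96, 1.92 to 1.99). The collagen prolyl hydroxylases had 189 and 219 CPM for P4ha1 (0.21) and 56.1 and 95.5 CPM for P4ha2 (0.77). Car9, the cell surface carbonic anhydrase, had 37.4 and 74.1 CPM (0.98, 0.93 to 1.04). Hilpda, a lipid droplet protein, had 94.8 and 139 CPM (0.55).

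Vegfa, the vessel growth factor, had 13.8 and 27.1 CPM (0.97, 0.88 to 1.07). Adm, a vasodilator peptide, was nearly absent from tumour-gated cells with 28 and 57 counts (1.00, 0.33 to 1.71). Egln1, the main oxygen sensing prolyl hydroxylase, had 3127 and 3662 counts (0.21, 0.14 to 0.28). Egln3, an inducible relative, had only 6 and 25 counts (2.04, 0.72 to 3.61). Ankrd37, an ankyrin repeat protein, had 67.8 and 153 CPM (1.17, 1.13 to 1.21) and Ndrg1 348 and 514 CPM (0.56). Mxi1, a MYC antagonist, had 31.5 and 33.4 CPM (0.09, 0.01 to 0.16), the lowest HIF stress ratio.

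In host classes the glycolysis medians were below 0, and the HIF stress medians were below 0 except in NK-gated cells. Differences between classes were not tested. In macrophage-gated cells (834 and 953) the glycolysis sum was 9749 and 9297 CPM and the HIF stress sum 1601 and 1600 CPM. The medians there were -0.09 and -0.07, and 13 of 33 members were above 0. Over 11382 genes the median was -0.16 and 38.8% were above 0, and 21 of 33 members lay above that median. With median-of-ratios scaling the median over all members in macrophage-gated cells was 0.0686 in place of -0.09. At least 2-fold higher were 4 HIF stress genes, Pdk1 (1.12), Ero1a (1.22), Vegfa (1.40) and Egln3 (2.04, from 8 and 61 counts), and 0 members were 2-fold lower, against 9.71% and 4.81% of 11382 genes.

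Glycolysis genes were mostly lower in the other host classes. Their medians were -0.39 in neutrophil-gated, -0.43 in T-gated, -0.23 in NK-gated and -0.55 in fibroblast-gated cells, where 3 of 16, 3 of 17, 4 of 15 and 2 of 15 were above 0. Over all genes tested in these classes the medians were 0.03, -0.11, 0.01 and -0.14. Above 0 were 51.9%, 43.5%, 50.6% and 41.4% of all genes. HIF stress medians were -0.65, -0.15, 0.42 and -0.48 in the same order, over only 8, 13, 7 and 15 genes that passed the minimum. In NK-gated cells 5 of 7 HIF stress genes were above 0, against 50.6% of all genes. Markers of other cells differed between the libraries within these gates. The sum of 8 macrophage markers was 380 and 901 CPM in neutrophil-gated, 97.5 and 259 CPM in T-gated, 162 and 379 CPM in NK-gated and 106 and 248 CPM in fibroblast-gated cells. In NK-gated cells 6 plasmacytoid dendritic cell markers summed to 84.0 and 968 CPM, with Ccr9 and Ly6d at 0 counts in the control. The part of these cells in the ratios was not tested. In neutrophil-gated cells 2 of 24 members were at least 2-fold higher and 3 lower, against 18.7% and 6.37% of genes. In T-gated cells 0 of 30 were higher and 2 lower, against 12.7% and 7.26%. In NK-gated cells 3 of 22 were higher and 0 lower, against 15.5% and 5.76%. In fibroblast-gated cells 2 of 30 were higher and 1 lower, against 10.2% and 6.18%.

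Pgam1 and Ero1a were higher in the antibody library in each of the 6 classes compared. Pgam1 lay between 0.33 and 0.73 in the 5 host classes, and each interval excluded 0. Ero1a lay between 0.33 in fibroblast-gated and 1.22 in macrophage-gated cells, with intervals that span 0 in NK-gated, neutrophil-gated and fibroblast-gated cells. Subtracting each gene's macrophage ratio left a tumour median of 0.56 for HIF stress genes, 14 of 16 above 0, and 0.39 for glycolysis genes, 17 of 17 above 0. Gapdh was at ratios below 0 in each host class, between -0.93 and -0.38, against 0.004 in tumour-gated cells. Dissociation stress genes differed between the libraries too, and their part in these ratios was not tested. In tumour-gated cells 9 of 10 were above 0 with a median of 1.48, led by Junb at 33.9 and 1312 CPM. Junb was at 4.82 in macrophage-gated cells as well.

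Across classes, enzymes such as Gapdh and Ldha were highest in tumour-gated cells, while Aldoa was highest in macrophage-gated cells and Slc2a1 and Slc16a3 in neutrophil-gated cells. Endothelial-gated cells (26 and 28) were too few to be ordered. Of 17 glycolysis genes, 6 were highest in tumour-gated cells of the control and 9 in those of the antibody library. Tpi1, Gapdh, Pgk1, Eno1 and Ldha were highest there in both libraries with intervals clear of the next class. Aldoa was highest in macrophage-gated cells of both libraries (1049 and 1053 CPM), and so were Pgam1 (583 CPM) and Pkm (1087 CPM) in the control, each with intervals that overlap the next class. Slc16a3 was highest in neutrophil-gated cells, with 1079 and 844 CPM, against 28.9 and 35.5 CPM in tumour-gated cells. Slc2a1 was also highest in neutrophil-gated cells, at 750 and 398 CPM, which rest on 73 and 76 counts. Pfkp was lowest in tumour-gated cells, with 315 and 205 CPM in T-gated cells, and Pfkfb3 was lowest there too.

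HIF stress genes were ordered differently in the 2 libraries. Car9 was the 1 of 16 with its highest level in tumour-gated cells of the control, and in the antibody library 9 were highest there. Of these, Pdk1 and Egln1 had intervals that overlap those of the next class. Fibroblast-gated cells (69 and 87) had the highest level of 8 of these genes in the control, and of 3 after antibody. For 4 of the 8, Pdk1, Bnip3l, Ero1a and Higd1a, the interval overlaps that of the next class, which was the tumour-gated class except for Bnip3l. The HIF stress sum of fibroblast-gated cells was 2247 CPM (2129 to 2370) and 1846 CPM (1765 to 1930). In the 26 and 28 endothelial-gated cells, left out of this order, it was 3185 CPM (2879 to 3515) and 1861 CPM (1695 to 2039). P4ha2, which prepares collagen for folding, had 411 and 276 CPM in fibroblast-gated cells and P4ha1 375 and 257 CPM. Adm had 68.0 and 188 CPM there and 0 counts in neutrophil-, T- and NK-gated cells, where the upper interval bounds lay between 1.62 and 37.9 CPM. Egln3 had 236 and 142 CPM in neutrophil-gated cells, from 23 and 27 counts, against 0.06 and 0.26 CPM in tumour-gated cells. The ratio of the glycolysis sum to the HIF stress sum was 7.32 and 5.26 in tumour-gated cells, 6.09 and 5.81 in macrophage-gated cells and 3.48 and 2.95 in fibroblast-gated cells. It was 7.42 and 6.56 in T-gated, 6.64 and 4.42 in NK-gated and 4.92 and 4.86 in neutrophil-gated cells. T-gated cells were thus above tumour-gated cells in each library.

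**Figure D2:**
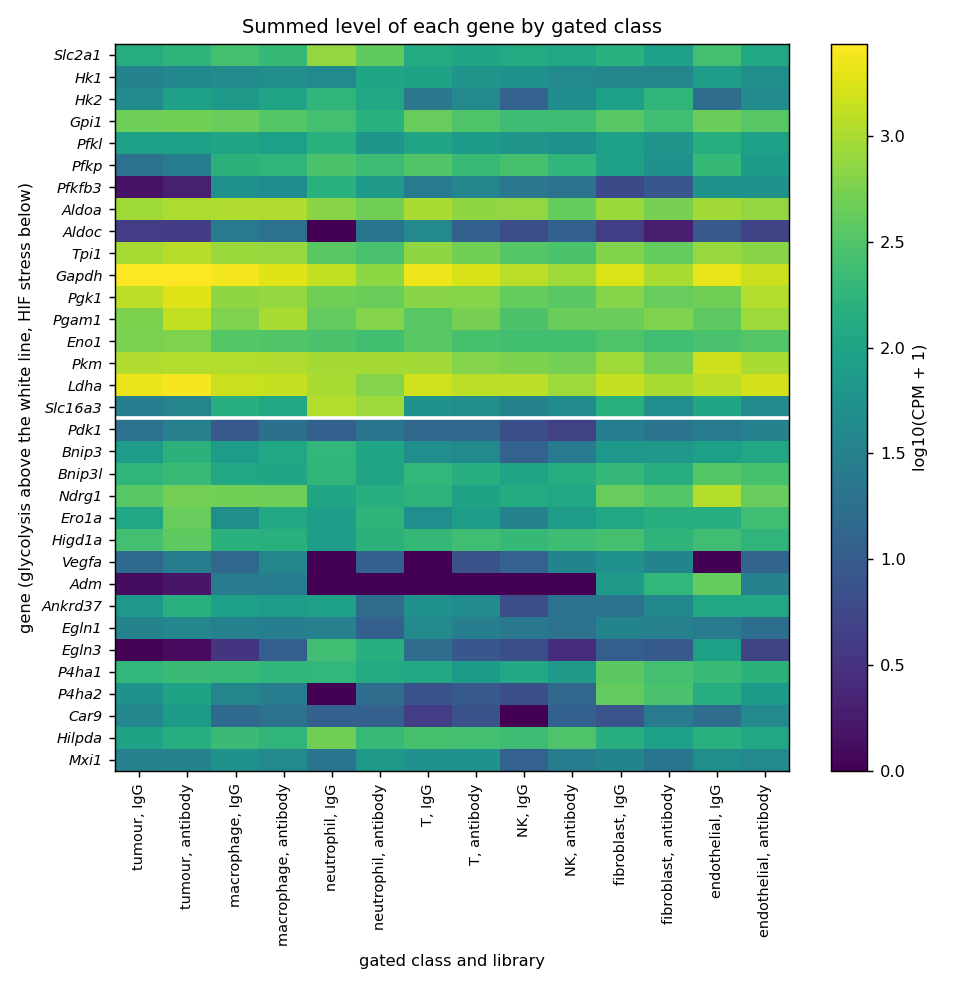
Level of each member as log10(CPM + 1) in 7 gated classes of the control (IgG) and antibody libraries. Slc16a3 is brightest in the neutrophil columns (1079 and 844 CPM), and Egln3 and Adm are dark in the tumour columns.

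Within the tumour-gated cells, those with more HIF stress UMIs had more glycolysis UMIs in each library. For this, every cell was thinned to 5000 UMIs, which left out 2730 shallower control and 1162 antibody cells. Pearson's r between the natural logs of the 2 sums, each plus 1, was 0.67 over 7119 control cells and 0.75 over 5166 antibody cells, and Spearman's rho 0.66 and 0.79. These describe cells that share a library and are not replicates. For all 7169 genes compared, the median of r on the same scale with the HIF stress sum was -0.01 and -0.02, and the 95th percentile 0.07 and 0.09. Those are single genes, unlike the glycolysis sum. Taken singly, the 17 glycolysis genes had a median r of 0.35 and 0.46, from 0.01 to 0.55 and from -0.01 to 0.67. The part of abundance in r was not tested. Medians per cell were 5 HIF stress and 48 glycolysis UMIs in the control, against 10 and 64 after antibody.

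Cells of each library were split into 5 equal groups by HIF stress sum, with tied cells divided between neighbouring groups. From the lowest to the highest group the mean glycolysis sum went from 37.7 to 100.6 UMIs in the control, and from 37.8 to 104.9 UMIs after antibody. At the same HIF stress sum the libraries were alike at low and apart at high values. At 5 HIF stress UMIs the mean glycolysis sum was 45.7 and 45.2 UMIs, and at 20 it was 103 over 62 control cells and 83.7 over 94 antibody cells. Ero1a alone gave a mean of 0.56 UMIs per cell in the control and 2.26 after antibody. The highest group was shallower before thinning, with medians of 9268 and 13282 UMIs against 11409 and 17723 in the lowest, and its median ribosomal protein share was 21.2% and 19.4% against 17.7% and 14.8%. The part of these in the correlation was not tested.

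**Figure D3:**
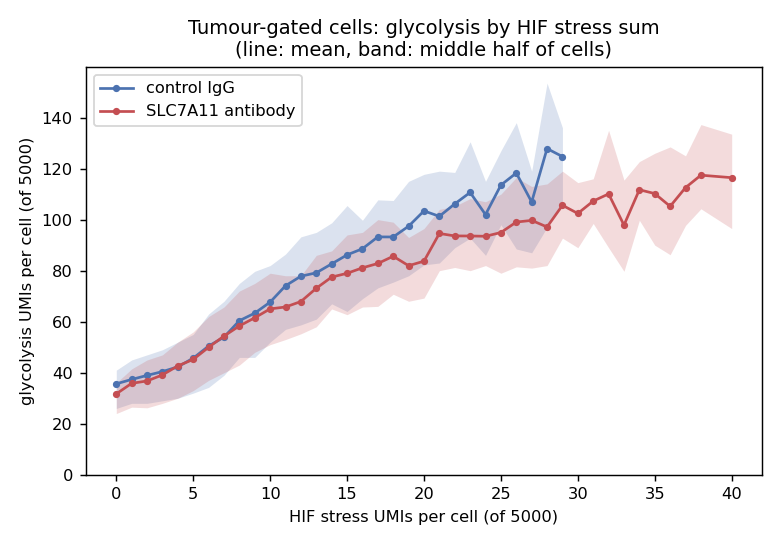
Mean glycolysis UMIs per tumour-gated cell (line) and the interquartile range of cells (band) against the cell's HIF stress UMIs, both of 5000, for sums with at least 20 cells. Both lines climb from under 40 at 0 HIF stress UMIs, and at 20 the control line is higher, at 103 against 83.7 UMIs.

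Single enzymes followed the HIF stress sum unequally. In the control r was 0.55 for Aldoa, Pgk1 and Ldha, 0.49 for Slc2a1 and 0.31 for Eno1, and in the antibody library 0.67 for Pgk1, 0.59 for Aldoa and 0.34 for Eno1. Slc2a1 had a steeper gradient than any other glycolysis gene except the scarce Aldoc, 7.57-fold and 7.68-fold from the lowest to the highest group. Gapdh went 2.37-fold and 2.77-fold, and Eno1 1.89-fold and 2.03-fold. Hk2 went 3.74-fold in the control but 1.87-fold after antibody, where it was already at 67.5 CPM in the lowest group against 21.6 CPM in the control. The hexokinases had r of 0.06 and 0.01 with each other, and Ldha and Pgk1 had r of 0.60 and 0.61. These pairs differ in abundance. In the control Hk1 averaged 0.17 and Hk2 0.21 UMIs per cell, against 11.3 for Ldha and 6.57 for Pgk1. After antibody they averaged 0.21, 0.47, 12.2 and 9.63. The part of scarce counts in the low r was not tested.

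Car9 UMIs were found in a minority of cells. At 5000 UMIs, 937 of 7119 control cells (13.2%) and 1325 of 5166 antibody cells (25.6%, 24.5 to 26.9) had a Car9 UMI. Without thinning the shares were 17.1% and 38.6%, against 0.546% and 1.80% of T-gated cells, whose median depths were 1399 and 2406 UMIs, and 5.28% and 9.44% of macrophage-gated cells. Cells with a Car9 UMI had higher levels of 13 of 13 HIF stress genes with enough counts, with median log2 ratios of 1.32 and 0.94. In glycolysis genes the medians were 0.94 and 0.54, with 16 of 16 and 16 of 17 above 0. Over 13675 and 13159 genes the medians of the same split were -0.09 and -0.12, with 37.8% and 32.5% above 0. Car9 itself is not counted among the members here.

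Ankrd37 stood out in the control, with 53.2 CPM in cells without and 217 CPM in cells with a Car9 UMI (log2 ratio 2.03, 1.92 to 2.14). After antibody it had 122 and 286 CPM (1.23, 1.15 to 1.32). Pgk1 had 1107 and 2673 CPM in the control (1.27), and 1568 and 2966 CPM after antibody (0.92). Vegfa had log2 ratios of 0.91 and 0.80. Among these cells of at least 5000 UMIs, those with a Car9 UMI were shallower before thinning, at 9685 against 11014 UMIs in the control, and 14874 against 16395 after antibody. With cells thinned to 2000 UMIs the shallower cells had fewer. A Car9 UMI was then found in 4.57% of control cells of 2000 to 5000 UMIs and in 7.14% of deeper ones. After antibody these shares were 8.02% and 13.1%.

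**Figure D4:**
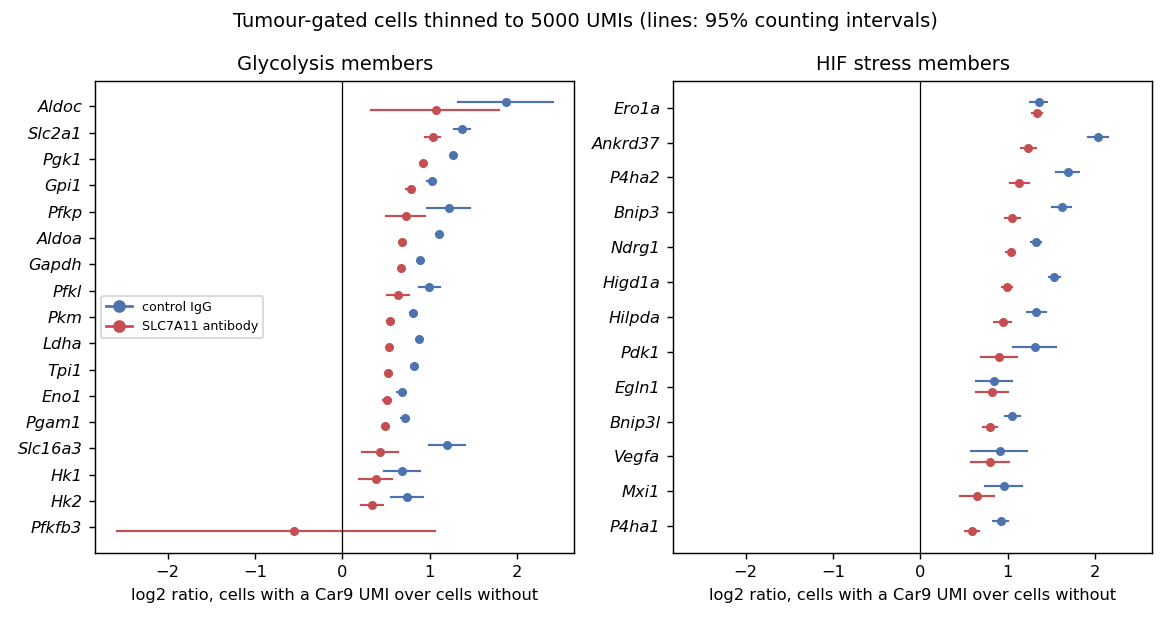
Log2 ratio of each member between tumour-gated cells with and without a Car9 UMI, for the control (blue) and antibody (red) libraries, with 95% counting intervals. Every point except Pfkfb3 in the antibody library (-0.55, on 21 UMIs) lies right of 0, and Ankrd37 in the control lies farthest right at 2.03.

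The HIF stress medians of the libraries were closer in cells with a Car9 UMI than in cells without, a difference that was not tested. Among cells without one, 13 of 13 HIF stress genes were above 0 with a median of 0.61, and 13 of 17 glycolysis genes with a median of 0.21. Among cells with one, 11 of 14 HIF stress genes were above 0 with a median of 0.23, and 5 of 16 glycolysis genes with a median of -0.17. The 14 include Car9 itself, whose UMIs chose these cells, and the 13 do not, so the sets differ. The medians of all genes were -0.12 without and -0.15 with a Car9 UMI. Ero1a was at 1.82 in cells without and 1.80 in cells with one, a difference of similar size in either. In the same order Bnip3 was at 1.10 and 0.54 and Ankrd37 at 1.19 and 0.40. Ldha was at 0.10 and -0.24 and Gapdh at -0.06 and -0.27.

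Cycling cells had lower HIF stress genes. Cells with at least 5 UMIs of 8 cell cycle genes (2490 control and 1721 antibody cells) were compared with those with at most 1 (3540 and 2575). The median log2 ratio of cycling over other cells was -0.44 and -0.43 for HIF stress genes, of which 1 and 0 of 14 were above 0, and -0.26 and -0.22 for glycolysis genes. Over all genes it was -0.02 and -0.01, with 48.4% and 48.7% above 0. Ndrg1, a growth-arrest associated gene, had -0.81 and -0.69. Aldoa had -0.91 and -0.77, while Pgam1 had -0.06 and -0.09 and Ldha -0.20 and -0.13. Slc16a3 was the glycolysis gene above 0 in each library (0.11 and 0.33). Its interval spans 0 in the control (-0.08 to 0.31) and not after antibody (0.12 to 0.54). The share of cycling cells went from 45.4% in the lowest to 24.5% in the highest HIF stress group of the control, and from 45.1% to 22.6% after antibody.

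Other genes of the pathways were counted from lists, beside all 18670 genes, of which 38.5% were above 0, 11.4% at least 2-fold higher and 4.8% at least 2-fold lower, with a median of -0.16. Of 25 other HIF targets with enough counts, 17 were above 0 in tumour-gated cells and 4 at least 2-fold higher, with a median of 0.26. Fam162a, a mitochondrial hypoxia protein, had 276 and 623 CPM (1.18), Angptl4, a lipase inhibitor, 16.2 and 64.4 CPM (1.99) and Ddit4, an inhibitor of mTORC1, 4.90 and 30.2 CPM (2.62). Of 20 other glycolysis genes 9 were above 0, 6 were at least 2-fold higher and 1 at least 2-fold lower, with a median of -0.05. Bsg, the chaperone of lactate carriers, had 119 and 1176 CPM (3.30), and was at 2.76 in macrophage-gated cells too. Eno3, another enolase, had 203 and 141 CPM (-0.53). Of 14 genes of pyruvate entry and the citric acid cycle 4 were above 0, with a median of -0.24. At least 2-fold higher were 3 of them, the pyruvate carrier subunit Mpc2 (2.53), the kinase Pdk3 (1.86) and the pyruvate dehydrogenase subunit Dlat (1.52). The same list had 4 of 14 genes at least 2-fold higher in macrophage-gated cells, against 9.71% of all genes. It had 3 of 12 in each of T-, NK- and fibroblast-gated cells, against 12.7%, 15.5% and 10.2%. In neutrophil-gated cells the 1 gene that passed was below 0. Of the other HIF targets, 14 of 22 were above 0 in macrophage-gated cells and 6 at least 2-fold higher, with a median of 0.18. Over all genes there, 38.8% were above 0. In neutrophil-, T-, NK- and fibroblast-gated cells the medians of the other HIF targets were -0.72, -0.01, 0.02 and -0.46, over 5, 18, 9 and 21 genes.

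The HIF regulators had a median of 0.55 over 8 genes in tumour-gated cells, with 5 above 0 and 3 at least 2-fold higher, against 38.5% and 11.4% of all genes. In macrophage-gated cells their median was 0.69 over 6 genes, with 4 above 0 and 3 at least 2-fold higher, against 38.8% and 9.71%. It was 0.07 over 8 genes in T-gated and 0.48 over 5 in fibroblast-gated cells. Hif1a, the oxygen regulated subunit, had 36.2 and 60.1 CPM (0.73) in tumour-gated cells and 58.3 and 149 CPM (1.35) in macrophage-gated cells. Its partner Arnt had 37.2 and 33.7 CPM (-0.14). Vhl, which tags HIF for destruction, had 4.96 and 16.1 CPM (1.69) and Egln2, a prolyl hydroxylase, 10.3 and 31.2 CPM (1.59). Per cell Hif1a did not follow the HIF stress sum (r 0.02 in each library), whereas Fam162a (0.58 and 0.63) and Mif (0.50 and 0.58), a cytokine, did. These headed the 10 non-members most correlated with the HIF stress sum among 7140 genes, ranked by the lower r. The next were Mt1 (0.48 and 0.52), a metallothionein, Lgals3 (0.42 and 0.47), a galectin, Tnfrsf9 (0.40 and 0.49), the receptor 4-1BB, and Ftl1 (0.35 and 0.42), the ferritin light chain. Mt2, Rplp1, Fau and Lrrfip1 completed them with lower values between 0.31 and 0.33.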

How the data were processed

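Single-cell RNA was captured from 2 dissociated tumour samples with a 3' droplet kit of 10x Genomics, as the labels' protocols state. The deposited tables give the UMI count of each gene in each barcode. Cell Ranger 7.2.0, Seurat and build mm10 were used by the authors, per the submitters' processing notes. Totals were 129044329 (control) and 143658800 (antibody) UMIs, and a gene listed in 1 table only was set to 0 in the other.

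Cells needed 200 genes, 500 UMIs and under 20% mitochondrial counts. Scrublet in scanpy 1.11.5 scored doublets per library, and the top 0.8% per 1000 cells were removed (1537 and 1164). No correction for free RNA was made. The members and gene lists were chosen with earlier results of these data known. The markers were set with the design, but gate thresholds were set after seeing the data: per 10000 UMIs, macrophage 50, neutrophil 100, T 20, NK 10, fibroblast 100 (without Dcn) and endothelial 10, with at least 3 marker UMIs. The tumour gate allowed under 10 macrophage or neutrophil and 50 fibroblast marker UMIs per 10000. Host classes were compared with at least 50 cells in each library. Cells in more than 1 gate (11 and 16) were left out, and 9.25% and 20.5% of cells stayed in no gate. All 33 members are given; other genes are named from the lists or as the 10 best correlated non-members seen in 5% of cells.

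Ratios are of class-summed CPM with exact conditional binomial 95% intervals, for genes with at least 20 counts over both libraries. Levels have exact Poisson intervals and shares Clopper-Pearson intervals. Called means at least 2-fold. Functions were tested on simulated data. Tools were matplotlib 3.10.9, pandas 2.3.3, scipy 1.17.1 and numpy 2.4.6 under Python 3.11.15. Alternatives were scaling, cell filter, doublets, gates, depth and count minimum.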

Additional observations from a re-analysis of the deposited data

Results flagged for a closer look

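Some members were higher in the antibody library in tumour-gated cells and lower in a host class, each by at least 0.5 on the log2 scale with counting intervals clear of 0, a limit set after seeing the data. With 1 library per group these differences between classes were not tested.

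Pfkp had a log2 ratio of 0.53 in tumour-gated cells, and of -0.61 in T-gated, -0.59 in NK-gated and -0.76 in fibroblast-gated cells. Hilpda was at 0.55 in tumour-gated cells, -1.24 in neutrophil-gated and -0.73 in fibroblast-gated cells. Pfkfb3 was at 1.08 in tumour-gated cells, from 46 and 99 counts, and at -1.18 in neutrophil-gated cells, from 15 and 13 counts. Ndrg1 was at 0.56 and, in T-gated cells, at -0.81. In fibroblast-gated cells Pgk1 was at -0.56, Higd1a at -0.60 and P4ha2 at -0.57, against 0.57, 0.59 and 0.77 in tumour-gated cells.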

How the results depend on the processing

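No paired analysis was possible because each group has 1 library. No library could be left out for the same reason. In tumour-gated cells the median of the HIF stress genes stayed above that of the glycolysis genes under every alternative run. The glycolysis median of 0.23 was 0.39 with median-of-ratios scaling, 0.19 with totals free of mitochondrial, ribosomal and haemoglobin genes, 0.24 without doublet removal, 0.19 under stricter gates and 0.16 with cells thinned to 1000 UMIs. The HIF stress median of 0.74 was 0.91 with median-of-ratios scaling, 0.66 under stricter gates and 0.66 with at least 100 counts. Minus the macrophage ratio, an alternative chosen after seeing the data, they were 0.39 and 0.56. The number of members at least 2-fold higher, 8, was 5 after thinning to 1000 UMIs and between 6 and 10 otherwise. The macrophage median of -0.09 over all members was 0.0686 with median-of-ratios scaling and 0.0547 without doublet removal, in the other direction. The r of 0.67 and 0.75 was 0.56 and 0.63 with cells thinned to 2000 UMIs, and 0.49 and 0.58 with cells not thinned. The cause was not tested, and fewer UMIs or unequal depth per cell apply by construction. The neutrophil, NK, T and fibroblast ratios rest on few counts for many members. Of 33 members 24, 22, 30 and 30 passed the minimum in that order. Median depth was 658.5 and 769.5 UMIs in neutrophil-gated cells, but 8442 and 10598 in the few fibroblast-gated cells.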

Other observations

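Genes whose counts per tumour-gated cell ran most against the HIF stress sum in both libraries were Lgals1, a galectin (r -0.33 and -0.35), Dbi, an acyl-CoA binding protein (-0.30 and -0.39), Srsf3, a splicing factor (-0.30 and -0.33), S100a6, a calcium binding protein (-0.29 and -0.36), and Hmgb1, a chromatin protein (-0.29 and -0.33). They were named after their values were seen. Lgals1 and Lgals3, both galectins, thus had r of opposite sign. Krt18, a keratin, was at 36.5 CPM in the lowest and 69.1 CPM in the highest of 5 equal groups of control cells by HIF stress sum, and at 18.2 and 55.2 CPM after antibody. Dissociation stress genes had 3946 and 4061 CPM in these groups of the control, and 8415 and 5582 CPM after antibody.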
